A study of Mus musculus with 11 samples.

Results

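H3K79me2, dimethylation of lysine 79 of histone H3, was compared between cardiomyocytes of the left ventricle of 2-month-old mice (adult) and cardiomyocytes of 1-day-old mice (neonatal) by chromatin immunoprecipitation and sequencing. The regions described are those of the authors' stage table on chromosomes 1 to 19, with the few places of extreme read density left out, together with the SICER islands of the same libraries. They number 12414 of the 12646 regions in the H3K79me2 stage table, and the stage tables of the 4 marks profiled hold 38018 regions in all. The table lists only places where the authors' comparison of the stages gave a false discovery rate under 0.01, so regions whose reads did not differ past that rate are not among them. Each stage had 1 H3K79me2 library, made with the same antibody from cells freed by enzymatic digestion. The neonatal labels give no heart region, so region and age cannot be told apart, and the strain, sex and number of animals are not given in the sources used here. Differences between the stages therefore have no replicate behind them, and no p-value was computed. Fewer cells carrying the mark and less of the mark per cell cannot be told apart in such libraries.

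H3K79me2 is written by DOT1L, the methyltransferase of this residue in mammals, which acts on the outer face of the nucleosome core and not on a histone tail. The mark lies over the early part of transcribed genes, downstream of the H3K4me3 found at promoters, and its spread along a gene is tied to transcription elongation. In mice, loss of DOT1L from cardiomyocytes leads to dilated cardiomyopathy. H3K27me3 is the Polycomb mark of silenced genes and H3K9me3 a mark of heterochromatin. The regions were not assigned to genes here, so they are named by position in the mouse build mm9, and the cell type was not checked against marker genes.

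The level of a region is given as its recovered reads, the whole number of reads left after the authors' subtraction of control reads, where a value of 1 read is the floor of the table. Normalised reads are these numbers times a library factor in the table, 0.707 for the adult and 1.41 for the neonatal library. The kept regions held 1893598 adult and 1236122 neonatal reads, 1.53 adult reads per neonatal read. Regions had a median width of 8600 bp, with a median of 79 adult and 32 neonatal reads. Counting intervals below treat recovered reads as plain counts and cover counting error only. Error in the subtracted control reads is not in them, and a value at the floor was entered as a count of 1. Limits given for floor regions are therefore nominal. The libraries were also amplified by PCR and carried no molecular identifiers that would tell molecules from copies.

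Under the deposited factors gains outnumbered losses by a little, and most of the strong changes were gains. The adult had the higher normalised H3K79me2 in 6752 regions (54.4%) and the lower in 5662 (45.6%), against 53.9% and 46.1% of all rows of the table. A gain of 4-fold or more was found at 4758 regions (38.3%) and a loss of 4-fold or more at 572 (4.61%), against 38.1% and 5.05% of the whole table. Smaller gains numbered 1994 and smaller losses 5090. The 2 directions differed in how often a stage was at the floor. At 3914 regions, 58.0% of those higher in the adult, the neonatal library stood at the floor of 1 read, where adult reads had a median of 32 and ranged from 11 to 1285. The adult library stood at the floor at 227 regions, 4.01% of those lower in the adult, where neonatal reads had a median of 8 and ranged from 4 to 2421. All 3914 were among the 4758 gains of 4-fold or more and all 227 among the 572 losses of 4-fold or more. Most strong gains are therefore limits and not measured folds. With regions at either floor left out, gains of 4-fold or more numbered 844 and losses of 4-fold or more 345. At any fold 2838 were then higher and 5435 lower.

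**Figure D1:**
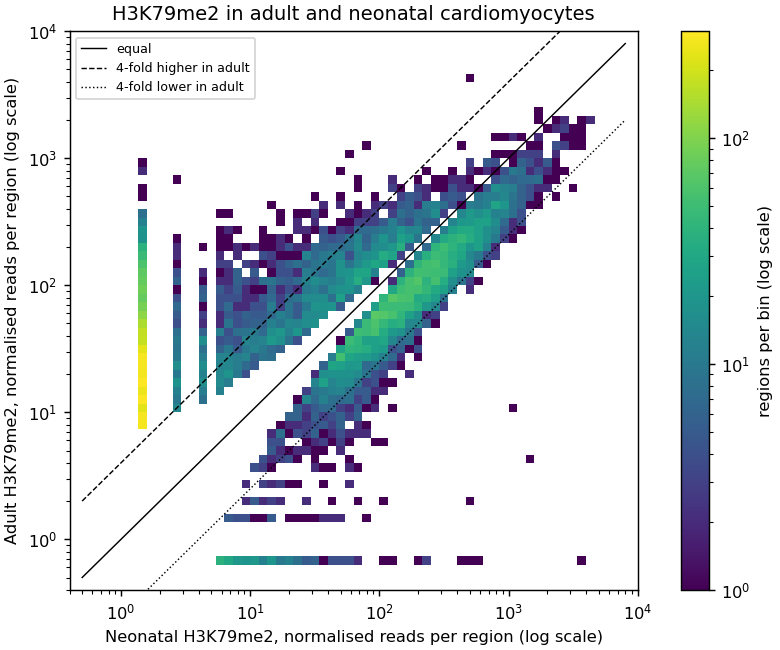
Adult normalised reads (vertical, log scale) are plotted against neonatal normalised reads (horizontal, log scale) for 12414 regions, and colour gives the number of regions per bin on a log scale. The vertical stripe at the left holds the 3914 regions at the neonatal floor, the row at the bottom holds the 227 regions at the adult floor, and the empty band along the line of equality, which narrows as reads increase, is where regions did not pass the false discovery rate of the table.

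The floor value did not always mean absence of the mark. Of the regions at the neonatal floor, 133 still held a neonatal SICER island. These regions had a median width of 9072 bp, of which islands covered a median of 27.6%. Among regions at the adult floor, 2 held an adult island.

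The small losses were close to equal in reads before the library factors were applied. The 5090 regions lower in the adult by less than 4-fold had a median of 127 adult and 130 neonatal reads, or 11.5 adult and 11.6 neonatal reads per kb. Their median log2 difference, adult minus neonatal, was -1.01, and the 2 factors alone shift every log2 difference by 1.00. These regions were broad, with a median width of 11428 bp, and 92.1% held islands at both stages. They carried 56.4% of all adult and 85.4% of all neonatal reads of the kept regions. The sources used here do not say how the factors were derived. Without them 74.1% of regions were higher in the adult, and with equal sums of reads 56.1% were. Centring on the median log2 difference of 0.72 makes both directions equal by construction. Among regions above the floor at both stages, 34.3% were higher in the adult, and 46.9% were when the higher stage had to hold an island.

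The strong gains divided by whether the adult library formed an island. Of the 4758, 49.2% held an adult island and no neonatal one, with a median of 10.2 adult and 0.217 neonatal reads per kb. Islands at both stages lay in 8.26%. In 42.1%, or 2003 regions, neither stage had an island, and the adult level was lower there, at a median of 4.06 reads per kb against 0.185 neonatal reads per kb. In absolute terms the strong gains were modest, since they carried 19.1% of all adult reads and had a median of 37 adult reads against 1 neonatal read. The smaller gains stood higher at both stages, at a median of 15.2 adult and 3.58 neonatal reads per kb. Of the 572 strong losses, 31.3% held a neonatal island and no adult one, 23.3% held islands at both stages and 44.6% held none.

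**Figure D2:**
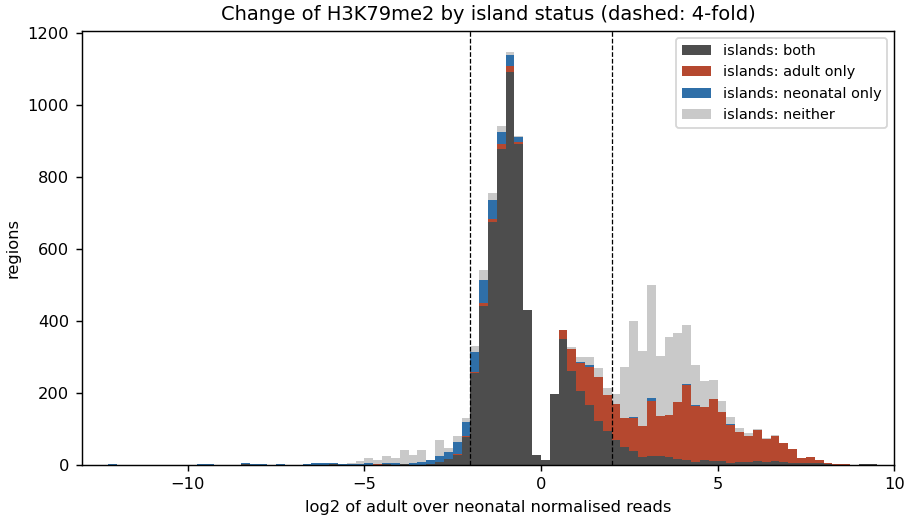
Number of regions (vertical) by log2 of adult over neonatal normalised reads (horizontal, bins of 0.25), stacked by the H3K79me2 islands in the region, with dashed lines at 4-fold. Regions with islands at both stages fill the peak of small losses near -1, and the strong gains consist mostly of regions with an adult island only (49.2%) or with none (42.1%).

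The largest gains were long domains with many adult reads and only 1 or 2 recovered neonatal reads. Neonatal SICER islands nevertheless lay in 4 of the 10, over 3.35% to 20.2% of the region, so at those 4 the island list and the table value disagree on the neonatal cells. They were ranked by the lower limit of the 95% interval of the normalised read ratio, among regions whose higher stage held an island. At chr5:120580000-120651599, 71600 bp long, there were 1285 adult reads and 1 neonatal read, and the lower limit of the ratio was 115. A single adult island covered the whole of it, and a neonatal island covered 3.35%. At chr3:122121400-122205999 the counts were 1097 adult reads and 1 neonatal read, with a lower limit of 98.3. There the adult signal was broken into 13 islands over 54.6% of the region, and no neonatal island was present.

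At chr8:125156800-125207399, with 1059 adult reads and 1 neonatal read and a lower limit of 94.9, neonatal islands covered 20.2% of the region. The region chr1:93859400-93904199 had 835 adult reads and 1 neonatal read, and chr8:72087800-72109599 had 690 and 1. Both were filled by a single adult island with no neonatal one. The last of these was also the most densely marked of the 10 largest gains, at 31.7 adult reads per kb. Neonatal reads above the floor allowed a ratio at chr12:103854400-103910799, where 1027 adult reads stood against 2 neonatal reads, 257-fold higher (95% interval 70.9 to 2124).

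Further gains lay at chr5:33076000-33112399 with 531 adult reads, where a neonatal island covered 18.1%, and, with no neonatal island, at chr15:84650600-84689999 with 527 and chr7:150598200-150658399 with 515, each with 1 neonatal read. The lower limit at chr2:93269200-93303999, also with 1 neonatal read, was 44.6, and a neonatal island covered 6.90%. The region on chromosome 7 stood apart in that its adult islands covered only 31.2% and its H3K4me3 island was found in the neonatal cells only. Each stage had an H3K4me3 island in 8 of these 10 regions, and at chr1:93859400-93904199 the adult alone had one. These were not always the same islands, since at chr5:120580000-120651599 the adult and neonatal H3K4me3 islands lay at different places within the region.

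**Figure D3:**
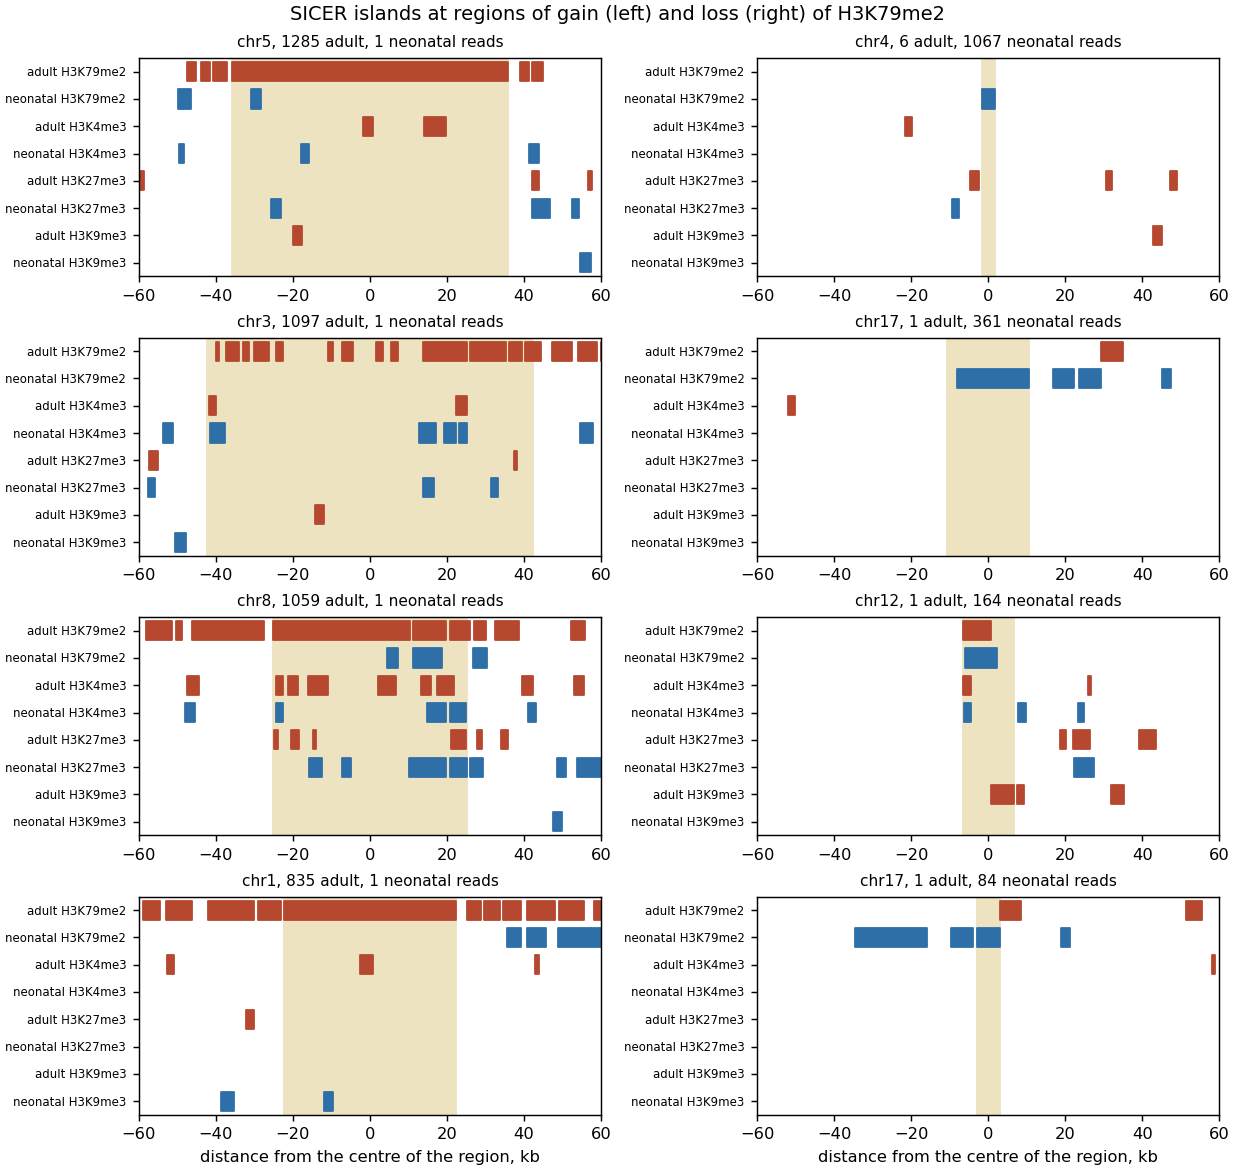
SICER islands of 4 marks within 60 kb of the centre of 4 gains (left) and 4 losses (right) of H3K79me2, with adult islands in red above neonatal islands in blue for each mark and the region shaded. Adult H3K79me2 islands fill or break up the shaded gains, while among the losses neonatal islands fill most of each shaded region and of these 4 only the loss on chromosome 12 has an adult island inside it.

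The largest losses were of another kind. Of the 10 ranked highest by the same rule, 7 were between 600 and 6400 bp wide and held neonatal islands of H3K27me3 and H3K9me3 as well, with no H3K4me3 island. The extreme among them, chr11:3000200-3006599, had 1 adult and 2421 neonatal reads, or 378 neonatal reads per kb, just inside the density limit. In these 7 regions the neonatal libraries of several marks were high at the same place, and the part of that shared pile-up in the loss was not tested.

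The other 3 losses lacked neonatal islands of H3K27me3 and H3K9me3. At chr17:5839600-5860799, 21200 bp long, there was 1 adult read against 361 neonatal reads, and a neonatal island covered 88.7%. Its neighbours, chosen after their values were seen, lost the mark too. There were 3 adult and 73 neonatal reads at chr17:5867000-5872799, 48.6-fold lower (95% interval 16.0 to 241), and 1 adult and 84 neonatal reads at chr17:5873600-5879599. No H3K4me3, H3K27me3 or H3K9me3 island lay in any of these 3 regions at either stage. At chr4:83864000-83867399, 6 adult reads stood against 1067 neonatal reads, 355-fold lower (163 to 971), at the high density of 314 neonatal reads per kb.

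At chr12:117285200-117298399 the table gave 1 adult and 164 neonatal reads, yet an adult island covered 56.1% of the region and a neonatal island 62.1%. The island and the table value disagree there, so the loss at that place rests on the table alone. At chr7:96662200-96667799, with 1 adult and 47 neonatal reads, H3K4me3 islands were present at both stages and an H3K27me3 island in the adult only.

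Very long domains were kept at both stages. The widest region, chr8:125406000-125570199, spanned 164200 bp and had 2799 adult and 3233 neonatal reads, 2.31-fold lower after normalisation (2.19 to 2.43). Islands covered 82.5% of it in the adult and 91.6% in the neonatal cells, but in 17 adult pieces against 3 neonatal ones. The same pattern was seen at chr8:34891400-35042999, with 2905 adult reads in 11 islands and 3244 neonatal reads in 3 islands, 2.23-fold lower (2.12 to 2.35). At chr1:73986400-74115799 the reads were nearly equal, 2614 adult and 2646 neonatal, and the table still gave a loss of 2.02-fold (1.92 to 2.14), which is the size of the factor.

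Other very long domains were listed as gains. At chr2:35421000-35570399 there were 3173 adult and 1254 neonatal reads, 1.27-fold higher (1.19 to 1.35) after normalisation. At chr8:111216200-111357999 there were 2198 adult and 527 neonatal reads, 2.09-fold higher (1.90 to 2.30), and islands covered 85.9% of it in the adult against 32.7% in the neonatal cells. The region of most reads among the gains was chr4:142728800-142752799, with 5973 adult and 357 neonatal reads, 8.37-fold higher (7.52 to 9.34). It was far denser than the others, at 249 adult reads per kb, and held islands of both stages. By contrast chr15:102737400-102875399, 138000 bp long, was listed as a gain on 216 adult reads and 1 neonatal read spread thinly at 1.57 adult reads per kb. An adult H3K79me2 island covered 0.725% of it, and H3K27me3 islands were present at both stages.

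The direction of change went with width. Among regions under 2000 bp the median log2 difference, adult minus neonatal, was 2.59 and 71.6% were higher in the adult. It was 2.48 from 2000 to under 5000 bp, 0.89 from 5000 to under 10000 bp and 0.30 from 10000 to under 20000 bp. The last class had no clear direction, with a 95% interval of the median from -0.37 to 0.45 and 50.1% of its regions higher. Regions of 20000 bp and over had a median of -0.52, and 38.6% of them were higher in the adult. The trend with width rested on floor regions. They made up 62.2% of the narrowest and 15.1% of the widest class at the neonatal stage, and with regions at either floor left out the medians were -1.33, -0.86, -0.77, -0.65 and -0.71 from narrow to wide. Direction also went with level, taken as reads summed before the library factors. Every listed region passed the false discovery rate, so a region with few reads could be listed only at a large fold. The bar differed by direction, with at least 11 adult reads at the neonatal floor and at least 4 neonatal reads at the adult floor. The part of this filter in the values by level was not tested. Regions with under 50 reads summed over the stages had a median of 3.17 and were higher in the adult in 85.0% of cases, whereas those with 500 reads or more had a median of -0.81 and were higher in 19.8%. With floor regions left out the medians were 1.25 for the regions with under 50 reads, 54.4% of them higher, and -0.81 for those with 500 reads or more, 19.4% of them higher.

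The adult SICER list was much the longer, and most of its islands had no neonatal counterpart. The order depended on the peak-calling program, since the MACS lists of the same libraries held 2951 adult and 13165 neonatal regions. These MACS regions were short, with median widths of 103 bp and 124 bp. On chromosomes 1 to 19 the adult SICER list held 60348 islands over 261 Mb, with a median width of 3200 bp. The neonatal SICER list held 17697 islands over 113 Mb, with a median of 4400 bp. An island of the other stage overlapped 33.6% of adult islands (95% Wilson interval 33.2 to 34.0) and 89.3% of neonatal islands (88.8 to 89.7). In the lists as deposited most neonatal islands thus had an adult partner, and most adult islands had no neonatal one. These shares depend on the lengths of the 2 lists. With equal numbers of islands, the top of each list by score, 55.0% of adult and 59.5% of neonatal islands had a partner. Intervals on shares count each island or region once, although neighbours are not independent.

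Sharing grew with width at both stages. It reached 88.3% of adult islands of 20000 bp and over, against 24.4% of those under 2000 bp. Among neonatal islands it was 99.8% of the widest and 71.9% of the narrowest. An overlap of 1 bp was enough, so a wider island can meet more islands by its width alone, and the part of this was not tested. The share of base pairs covered by the other list was 62.2% in the narrowest and 78.4% in the widest neonatal islands. In adult islands it was 21.8% and 56.7%. Wide neonatal domains were met by several adult islands. Of neonatal islands of 20000 bp and over, 94.4% overlapped more than 1 adult island, and up to 16, whereas 54.8% of adult islands of that width overlapped more than 1 neonatal island, and up to 8. With equal numbers of islands, the top of each list by score, the shares were 55.0% of adult and 59.5% of neonatal islands.

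**Figure D4:**
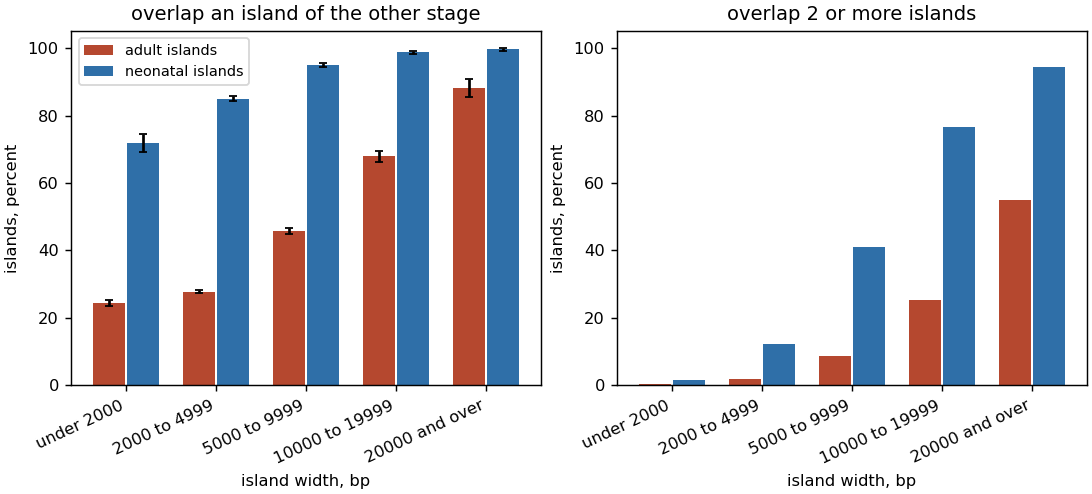
Percent of adult (red) and neonatal (blue) H3K79me2 islands, by island width in bp, that overlap any island of the other stage (left, error bars are 95% Wilson intervals) or 2 or more of them (right). Neonatal bars stand above adult bars in every width class, with lists of unlike length, 60348 adult and 17697 neonatal islands. The widest neonatal islands were overlapped by more than 1 adult island in 94.4% of cases.

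Islands without a partner were described by their distance from the other list and by the marks they met. The distances depend on the length of the list they are measured to, and the neonatal list is much the shorter, so they are not compared between the stages. Those of the adult, 40058 in number, lay a median of 26.2 kb from the nearest neonatal island, and 34.3% of them were 50 kb or more away. The 1897 neonatal islands without a partner lay a median of 3.0 kb from an adult island, and 39.8% were closer than 2 kb. H3K4me3 islands of the same stage overlapped 12.9% of adult islands without a partner (12.6 to 13.3) against 37.3% of shared adult islands (36.6 to 37.9). For neonatal islands the shares were 25.1% without a partner (23.2 to 27.1) and 43.5% for shared ones (42.8 to 44.3). H3K27me3 went the other way, at 6.12% of unshared and 2.41% of shared adult islands, and 6.11% of unshared and 1.77% of shared neonatal islands. Unshared islands were narrower at both stages, with medians of 3000 bp, against 4200 bp for shared adult and 4600 bp for shared neonatal islands, and the part of width in these differences was not tested.

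The reach of the mark was measured around promoter-type sites. Among 12934 H3K4me3 islands found at both stages, H3K79me2 islands overlapped 3876 (30.0%) at both stages, 2580 (19.9%) in the adult only, 1046 (8.09%) in the neonatal cells only and 5432 (42.0%) at neither. At the 3876, H3K79me2 reached a median of 4200 bp beyond the centre on its longer side in the adult (95% interval of the median 4000 to 4300) and 5400 bp in the neonatal cells (5200 to 5699). On the shorter side it reached 1099 bp in the adult and 999 bp in the neonatal cells. The longer side exceeds the shorter by definition. It was the same side at both stages in 77.2% of these sites. The order of the stages depended on how islands were joined. Adult H3K79me2 was narrower at 56.2% of sites as deposited, at 41.8% with the 17000 islands of highest score in each list and at 36.4% when islands up to 2000 bp apart were joined. With joining, the longer side reached 10999 bp in the adult and 8300 bp in the neonatal cells. Both settings were chosen after the values were seen, and no direction for the reach of the mark can be drawn from these lists.

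Strong gains often shared their place with the Polycomb mark. An H3K27me3 island of either stage lay in 47.1% of strong gains, 15.8% of smaller gains, 5.76% of smaller losses and 28.8% of strong losses, against 24.3% of all kept regions. It was present at both stages in 28.9% of strong gains and 1.14% of smaller losses. The contrast between strong gains and strong losses depended on width. Among regions of 20000 bp and over, H3K27me3 islands lay in 75.1% of 418 strong gains, 29.0% of 389 smaller gains, 126 of 1260 smaller losses and 34.6% of 26 strong losses. From 2000 to under 5000 bp the shares were 29.8% of strong gains, 5.85% of smaller gains, 2.31% of smaller losses and 31.4% of strong losses. Under 2000 bp they were 55 of 286 strong gains and 17 of 85 strong losses, so in the narrow classes strong gains and strong losses were close. The share was smaller where an H3K79me2 island was present. Among kept regions of any class it was 16.1% of the 9893 with an H3K79me2 island in the stage with more reads. It was 58.1% of the 2428 with no H3K79me2 island at either stage. Whether islands of other marks helped to define the listed regions was not tested, so part of the shared place may be built in. H3K27me3 islands lay in 36.5% of strong gains with an adult H3K79me2 island, and in 61.8% of those with no H3K79me2 island at either stage. They lay in 12.2% of strong losses with a neonatal H3K79me2 island, and in 49.4% of those with none at either stage.

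Over all widths H3K9me3 followed a like order, with islands in 29.1% of strong gains, 13.2% of smaller gains, 6.80% of smaller losses and 20.5% of strong losses. The share over all kept regions was 17.0%. With a neonatal H3K79me2 island required, the share of strong losses was 10.6%. In the narrow classes the order of strong gains and strong losses was reversed. Under 2000 bp H3K9me3 islands lay in 15.4% of strong gains and 21.2% of strong losses. From 2000 to under 5000 bp they lay in 13.9% and 17.8%. In the wider classes strong gains had the higher share, 28.6% and 22.5% from 5000 to under 10000 bp and 65.3% and 30.8% at 20000 bp and over. Over all widths H3K4me3 lay in 73.5% of strong gains, 74.9% of smaller gains and 77.5% of smaller losses, but in 43.2% of strong losses (39.2 to 47.3). The share went with width among losses more than among gains. From 2000 to under 5000 bp H3K4me3 islands lay in 75.4% of strong gains, 80.9% of smaller gains, 48.9% of smaller losses and 30.9% of strong losses. Under 2000 bp they lay in 72.0% of strong gains and 23.5% of strong losses, and from 5000 to under 10000 bp in 67.8% and 50.3%. From 10000 to under 20000 bp the shares were 73.3% of strong gains, 84.0% of smaller losses and 82.1% of the 56 strong losses.

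**Figure D5:**
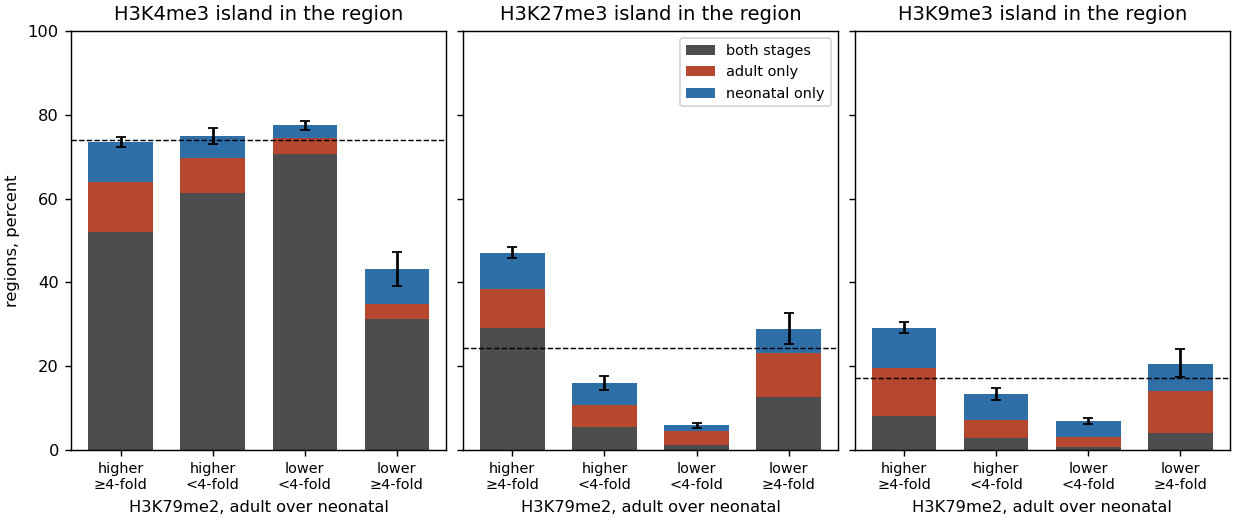
Percent of regions (vertical) in 4 classes of H3K79me2 change, adult over neonatal, that hold an island of H3K4me3, H3K27me3 or H3K9me3, split by the stage of that island, with 95% Wilson intervals on the total and a dashed line for all regions. H3K27me3 reaches 47.1% of strong gains and 5.76% of smaller losses, and H3K4me3, over all widths, is at 43.2% in strong losses and at 73.5% to 77.5% in the other classes.

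The authors also set each stage against mouse embryonic stem (mES) cells, and the 2 tables share the mES library and hold the same stage libraries as above, so their values are given side by side only. In the authors' deposited tables, adult H3K79me2 stood above mES cells at 82.3% of the 4249 strong gains listed, and neonatal H3K79me2 at 10.1% of the 1656 listed. Over all kept regions listed in the authors' deposited tables the shares were 59.7% for the adult and 48.8% for the neonatal cells, and at smaller gains they were 68.4% and 47.3%. At smaller losses the adult stood above mES cells at 36.1% of those listed and the neonatal cells at 61.2%. At strong losses the adult did so at 22.7% of 291 and the neonatal cells at 83.3% of 406. Those listed were 89.3% of strong gains for the adult but 34.8% for the neonatal cells, and 50.9% and 71.0% of strong losses. The classes were defined by these same adult and neonatal reads, and 3914 strong gains stood at the neonatal floor. The order of the stages within a class thus follows in part from that choice and is no separate support for the change.

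The named gains fell into more than a single pattern. At chr5:120580000-120651599 the authors' deposited table gave adult minus mES as 9.29 on the log2 scale, and the table for the neonatal cells has no entry there. At chr1:93859400-93904199 the adult likewise stood 8.67 above mES cells in the authors' deposited table, with no neonatal entry. By contrast, at chr3:122121400-122205999 the authors' deposited tables placed the adult 1.08 below mES cells (-1.08) and the neonatal cells far below (-10.21). At chr12:103854400-103910799 the values in the authors' deposited tables were -1.11 for the adult and -9.13 for the neonatal cells. Some of the largest gains thus stood far above mES cells in the adult, whereas at others the adult stood slightly below mES cells and the neonatal cells far below. The size of these differences is limited by values at or near the floor. The neonatal library had 1 recovered read at the chromosome 3 region and 2 at the chromosome 12 region. At the chromosome 5 and chromosome 1 regions adult minus neonatal was 9.33 and 8.71, close to adult minus mES. Whether the mES values were at a floor there was not tested. For the loss at chr17:5839600-5860799 the authors' deposited tables gave -8.67 for the adult, which had 1 recovered read, and 0.80 for the neonatal cells.

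Regions that lay close together tended to change the same way. Neighbouring regions under 10 kb apart had the same direction in 74.5% of 3287 pairs, against 59.4% at 10 to 50 kb, 54.1% at 50 to 200 kb, 51.4% at 200 kb to 1 Mb and 46.8% beyond. The split of directions alone gives 50.4%. Among chromosomes the share higher in the adult ran from 45.2% on chromosome 3 (41.2 to 49.3) to 59.8% on chromosome 17 (56.1 to 63.5).

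By number of regions, the longest unbroken run of strong gains was chr6:47604200-47728999, where 17 successive regions over 124.8 kb held 640 adult and 17 neonatal reads. Each of the 17 stood at 1 neonatal read, all held an H3K4me3 island, 11 held an adult H3K79me2 island and 5 an H3K27me3 island. Runs of 15 strong gains spanned more of the genome, 573.8 kb at chr11:114625400-115199199 with 922 adult and 42 neonatal reads and 887.9 kb at chr13:23486200-24374126 with 414 adult and 16 neonatal reads. The run of most regions higher in the adult at any fold, chr4:151458800-153860799, took in 30 regions with 4739 adult and 669 neonatal reads, and 25 of them held H3K27me3 islands. The run of most regions lower in the adult, chr13:9289000-12616799, took in 28 regions with 3015 adult and 4359 neonatal reads. There 26 regions held a neonatal H3K79me2 island, 23 an adult one and 2 an H3K27me3 island.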

How the data were processed

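Bowtie 0.12.8, SICER 1.1, MACS 1.4.2, DiffBind 1.2.0 and the build mm9 were used, per the submitters' processing notes. The authors deposited SICER islands per library with a score for each, used here only to rank islands, and DiffBind tables holding the log2 of normalised reads per stage and a false discovery rate. Unlogged values divided by the lowest of their column gave whole numbers within 0.01, taken as recovered reads. Regions with 0.5 or more recovered reads per bp at either stage (11) and those outside chromosomes 1 to 19 (221) were left out. Just inside that limit lay chr3:56379200-56379999 (0.401 reads per bp) and just outside it chr4:70039000-70040599 (0.741).

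The sources used here give no total sequencing depth. Read ratios carry exact conditional binomial 95% intervals, shares Wilson intervals and medians order-statistic intervals. Overlap meant 1 bp or more. The code was tested on simulated reads. Named regions were the 10 largest gains and losses by interval limit with an island in the higher stage, the 5 widest and 5 of most reads in each direction, and those at the density limit. Added after seeing values were the largest changes above the floor, losses without neonatal H3K27me3 or H3K9me3 islands, and the longest runs. The regions, lists and rules were chosen with earlier results of these data known. The 2 columns of mES values in the tables used belong to no sample of the series and were not used. No annotation in mm9 was used here, so the comparison over gene lists was not run. Python 3.11.15, numpy 2.4.6, pandas 2.3.3 and scipy 1.17.1 were used.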

Additional observations from a re-analysis of the deposited data

Results flagged for a closer look

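Outside the comparison, the 11 regions past the density limit held 287671 neonatal and 8409 adult reads, or 18.8% of the neonatal and 0.440% of the adult reads of the table, and 10 of the 11 were lower in the adult. The X chromosome, also outside the comparison, had 214 listed regions, of which 67 (31.3%) were higher in the adult and 147 lower.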

How the results depend on the processing

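Regions lower in the adult numbered 3220 without library factors. Losses of 4-fold or more numbered 289 without factors, 2105 when centred on the median, 345 without floor regions and 312 with an island required, and they numbered 3141 at 2-fold and 245 at 8-fold. Without floor regions 2838 were higher, 844 of them by 4-fold or more, and 2734 gains of 4-fold or more had an adult island. Without floor regions the median log2 differences reversed to -1.33, -0.86 and -0.77 for the width classes under 10000 bp. They were -0.65 from 10000 to under 20000 bp, a class with no clear direction before, and -0.71 for the widest. These settings remove regions or shift each value by construction. Shared islands were 26.1% of adult and 75.1% of neonatal ones with 50% of the island covered, 32.7% and 85.2% above the median score, 55.0% and 59.5% in equal numbers, and 3.63% and 0.836% for MACS regions, whose median widths were 103 bp in the adult and 124 bp in the neonatal list. Where the higher stage had to hold an H3K79me2 island, H3K4me3 islands lay in 75.2% of higher and 76.1% of lower regions, H3K27me3 in 27.7% and 5.80%, and H3K9me3 in 19.7% and 7.00%. With 50% of the other island covered, higher regions held H3K27me3 in 36.4% and H3K9me3 in 22.9% of cases. The longer side of H3K79me2 reached 10999 bp in the adult and 8300 bp in the neonatal cells with islands joined, and 6400 bp and 5999 bp with the 17000 top islands, and the adult was narrower at 36.4% and 41.8% of sites. The cause of these last shifts was not tested. No paired analysis was possible because each stage had 1 library and the labels carry no replicate numbers, and leaving out a replicate was not possible for the same reason. The comparison over gene lists and its 2 alternatives were not run. For single classes, requiring an island in the higher stage gave H3K27me3 in 36.5% of strong gains and 12.2% of strong losses, H3K9me3 in 24.4% and 10.6%, and H3K4me3 in 75.6% of strong gains, and with 50% of the other island covered strong gains held H3K27me3 in 45.4% and H3K9me3 in 27.4% of cases. A further 47 values for the comparisons and 17 for single classes moved by less than their 95% interval or, for a count, by less than 1.5 times. A region at the floor of 1 read gives only a limit for its ratio.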
